A study of Homo sapiens with 4 samples.

Results

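The haematopoietic heptad is a set of 7 transcription factor genes, GATA2, RUNX1, TAL1, LYL1, LMO2, ERG and FLI1. All 7 were found among the 19912 genes of the count table by matching its Ensembl identifiers to symbols, and all 7 had enough reads to be tested. Expression was measured by RNA sequencing in GATA2/eGFP-positive endothelial cells made from H1, an established human embryonic stem cell line. Wild-type cells (WT, 2 libraries) were set against cells carrying a knockout of GFI1 (GFI1-KO, 2 libraries). Both groups share the H1 background, the endothelial differentiation and the selection on the GATA2 reporter. The labels do not say how many knockout clones were used, how the knockout or the reporter was built, or whether replicates were grown separately. The p-values therefore rest on the spread among these 4 libraries alone, and that spread may be technical.

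Heptad proteins are known for binding DNA together in blood stem and progenitor cells, often at one another's regulatory regions. GATA2 is a zinc-finger factor, RUNX1 binds DNA with the partner CBFB, TAL1 and LYL1 are basic helix-loop-helix paralogues that pair with E-proteins, LMO2 is a LIM-domain bridge that does not itself contact DNA, and ERG and FLI1 are ETS-family paralogues. ERG, FLI1, TAL1, LMO2 and GATA2 are also expressed in endothelium. RUNX1 marks the part of endothelium that can turn into blood, a step in which RUNX1 is known to switch on the repressor gene GFI1.

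Promoter windows are shown for the members in which a GATA or ETS core was found near an annotated start, because the heptad proteins themselves bind such sites. The 300-base windows come from RefSeq (GRCh38.p14), which held at least 1 window for GATA2, RUNX1, TAL1, LYL1 and ERG, 10 windows in all; LMO2 and FLI1 had no entry. Each is written 5′ to 3′ on the gene's strand, with matches to the GATA, ETS and RUNX cores in capitals. The GATA cores searched were AGATAA or its variant TGATAA, and likewise AGATAG or its variant TGATAG. The ETS cores were CGGAAG or its variant AGGAAG, and the RUNX core was TGTGGT. Both strands were searched. The windows are chr3:128493152-128493451 for GATA2, chr19:13102809-13103108 for LYL1, chr1:47232286-47232585 for TAL1 and chr21:38498455-38498754 for ERG, all on the minus strand.
GATA2: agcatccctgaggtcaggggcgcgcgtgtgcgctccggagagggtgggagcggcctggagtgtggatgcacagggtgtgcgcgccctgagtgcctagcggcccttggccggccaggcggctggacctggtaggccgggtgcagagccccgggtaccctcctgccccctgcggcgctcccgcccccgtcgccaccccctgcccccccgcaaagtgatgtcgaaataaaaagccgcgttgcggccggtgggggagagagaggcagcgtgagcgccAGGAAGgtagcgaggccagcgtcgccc
LYL1: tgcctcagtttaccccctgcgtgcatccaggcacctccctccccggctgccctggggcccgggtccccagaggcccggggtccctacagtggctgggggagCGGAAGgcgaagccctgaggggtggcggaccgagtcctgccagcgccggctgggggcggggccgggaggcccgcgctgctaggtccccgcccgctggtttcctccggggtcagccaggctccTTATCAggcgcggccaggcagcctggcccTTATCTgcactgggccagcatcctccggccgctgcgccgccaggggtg
TAL1: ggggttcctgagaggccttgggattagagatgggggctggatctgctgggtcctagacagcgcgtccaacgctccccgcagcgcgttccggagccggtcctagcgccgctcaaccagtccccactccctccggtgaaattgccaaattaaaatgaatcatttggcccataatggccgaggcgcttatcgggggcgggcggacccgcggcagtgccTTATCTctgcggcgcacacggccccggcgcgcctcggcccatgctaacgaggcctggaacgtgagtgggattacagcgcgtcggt
ERG: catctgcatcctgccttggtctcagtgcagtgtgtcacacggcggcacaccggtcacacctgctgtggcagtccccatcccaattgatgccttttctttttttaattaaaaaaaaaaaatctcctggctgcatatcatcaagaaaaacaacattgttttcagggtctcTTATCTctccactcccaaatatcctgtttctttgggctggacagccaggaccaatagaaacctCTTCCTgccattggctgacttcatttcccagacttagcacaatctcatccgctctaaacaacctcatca

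The LYL1 window held 2 GATA matches, which began at positions -27 and 3 from the annotated start, and 1 ETS match at -149. The TAL1 window held 1 GATA match at -35. The ERG window held 1 GATA match at -82 and 1 ETS match at -19, and the GATA2 window held 1 ETS match at 24. No match in these 4 windows overlapped another. Among all 35116 windows in the RefSeq table, 25% held a GATA match, 46.9% an ETS match and 13.1% a RUNX match. The other TAL1 window (chr1:47231666-47231965) held 3 RUNX matches and 2 ETS matches that overlap each other. Neither the RUNX1 window (chr21:34888650-34888949) nor the other GATA2 window (chr3:128488481-128488780) held a GATA, ETS or RUNX match. Of the other 3 ERG windows, chr21:38660618-38660917 and chr21:38584896-38585195 held none either, and chr21:38498428-38498727, which overlaps the shown one, held the same GATA and ETS letters. The E-box CAGATG was found in 1 of the 10 windows, the shown ERG one, against 14.7% of all windows. The letters AAATCA, which hold the AATC core bound by GFI1, were in none of the 10 and in 13.2% of all windows. The shorter AATC alone was not counted, and it does occur in the TAL1 and ERG windows shown.

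The libraries differed in depth. The shallowest, GFI1-KO replicate 1, had a total of 146584 counts, while totals of the remaining 3 ran from 2239214 to 2417410, so that a floor of 3 counts stands at 19.9 CPM in that library and at 1.26 to 1.34 CPM in the others. CPM are read counts scaled to a common library total, after adjustment by TMM, a scaling that assumes most genes do not differ. Intervals are exact 95% Poisson or binomial intervals and cover counting error only. GFI1, the targeted gene, was at 58.5 and 58.3 CPM in WT and at 19.9 and 19.6 CPM in GFI1-KO, the first of these on 3 counts (log2 fold change -1.57, SE 0.31, edgeR adjusted p = 0.0215). It no longer passed with DESeq2 (adjusted p = 0.443) or once 1 of the WT libraries (0.137 for the first, 0.096 for the second) or the deep GFI1-KO library (0.271) was left out.

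All 10 endothelial markers (ERG among them) had reads in every library, with a summed level of 6499.7 and 6663 CPM in WT and 7849.8 and 9346 CPM in GFI1-KO. Of the 14 blood markers, 4 were at 0 in all libraries, namely PTPRC, HBE1, HBG1 and HBG2, and the sums were 51.4 and 87.7 CPM in WT and 33.1 and 41.8 CPM in GFI1-KO. Of the 8 pluripotency markers, NANOG and PRDM14 were at 0 everywhere; the sums of 145 to 147 CPM in WT and 79.5 to 109 CPM in GFI1-KO came mostly from DPPA4. The 10 mesenchymal markers summed to 1683 and 1065 CPM in WT and 1093 and 1279 CPM in GFI1-KO, mostly from COL1A1 and COL3A1. The sorted cells thus carried the endothelial set, with collagen transcripts beside it. COL1A1 and COL3A1 averaged 632 and 567 CPM in WT, against 681 CPM for CDH5 and 3140 CPM for KDR among the endothelial markers.

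Among the heptad, GATA2 was the member that fell in GFI1-KO, 1 of 7, against 0.185% of all 11380 tested genes called lower and 0.958% called in either direction. The other 6 did not pass the test. Their log2 fold changes ran from -1.33 for RUNX1 to 0.51 for ERG. The median over the 7 was -0.35, beside -0.024 over all tested genes. By position of the libraries alone, both GFI1-KO values lay below both WT values for GATA2, RUNX1 and LYL1 (3 of 7, against 22.7% of tested genes) and above them for ERG (1 of 7, against 18.6%), which makes 4 of 7 on one side against 41.2%. TAL1, LMO2 and FLI1 overlapped between the genotypes. In bulk samples, fewer cells of a type and less RNA per cell cannot be told apart.

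**Figure D1:**
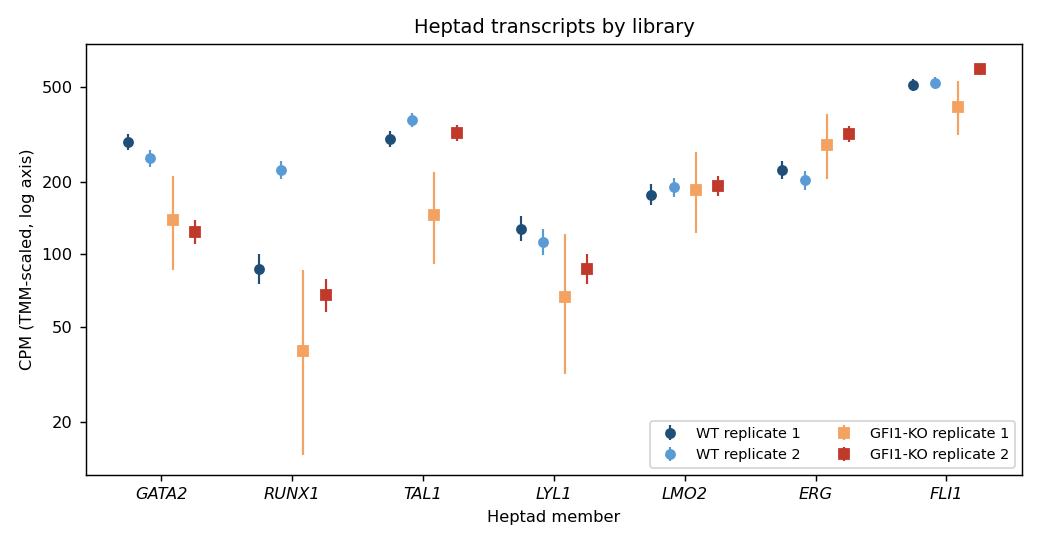
CPM of each heptad gene (log axis) in the 4 libraries, with circles for WT, squares for GFI1-KO and bars for exact 95% counting intervals. GATA2 is lower in both GFI1-KO libraries, RUNX1 differs widely between the WT libraries, and ERG is higher in both GFI1-KO libraries.

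GATA2 (ENSG00000179348; chromosome 3, 128479427 to 128493185, minus strand, GRCh38) encodes the zinc-finger factor needed to form and maintain blood stem cells. Its level was 293 and 252 CPM in WT replicates 1 and 2, and 139 and 124 CPM in GFI1-KO replicates 1 and 2, on 657, 600, 21 and 279 counts. The libraries of each genotype were close to each other, and the groups did not overlap. The log2 fold change was -1.09 (SE 0.24, edgeR adjusted p = 0.0376), and the pooled ratio of 0.460 had an exact interval of 0.404 to 0.522. Even the wide interval of the shallow GFI1-KO library, 86.1 to 213 CPM, lay below that of either WT library, the nearer of which began at 232 CPM. GATA2 expression is also what the sort selected on, so these levels describe cells already chosen for an active GATA2 reporter. GATA2 no longer passed when the fit dropped WT replicate 1 (adjusted p = 0.446), the other WT library (0.0876) or the deep GFI1-KO library (0.131). It was lost as well with DESeq2 (0.129), the newer quasi-likelihood dispersion (0.0673), upper-quartile scaling (0.0518) and a minimum mean of 5 CPM (0.0677), while the log2 fold change stayed between -1.17 and -0.96 over all 13 alternatives.

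RUNX1 (ENSG00000159216; chromosome 21, 34787801 to 36004667, minus strand) encodes the runt-domain factor that hemogenic endothelium needs to form blood. It was at 87.1 CPM in WT replicate 1 and 225 CPM in WT replicate 2, a difference of 2.59-fold within one genotype. In GFI1-KO it was at 39.7 and 67.7 CPM, on 6 and 152 counts. Both GFI1-KO values were below both WT values. The intervals of GFI1-KO replicates 1 (14.6 to 86.5 CPM) and 2 (57.3 to 79.3 CPM) both overlapped that of WT replicate 1 (75.3 to 100.2 CPM). The log2 fold change of -1.33 (SE 0.38) did not pass (edgeR adjusted p = 0.134). Each library left out moved the value or the call. Without WT replicate 1 it was -1.89 (adjusted p = 0.000735) and without WT replicate 2 it was -0.52 (adjusted p = 1.00). The test was also passed without GFI1-KO replicate 1 (-1.21, adjusted p = 0.00113) and when GFI1-KO replicate 2 was dropped (-1.97, adjusted p = 0.0096). With no low-count filter it passed as well (adjusted p = 0.000419). RUNX1 passed in 5 of the 13 alternatives, the replicate block among them. It did not pass with DESeq2 (-1.48, SE 0.79) or limma-voom (adjusted p = 0.245). Nor did it with the newer quasi-likelihood dispersion (0.239), RLE size factors (0.132), upper-quartile scaling (0.182), library totals alone (0.159) or a minimum mean of 5 CPM (0.231).

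Few genes differed as much between the WT libraries as RUNX1. Among 7971 tested genes with a WT mean of at least 20 CPM, 38 including RUNX1 were at least as far apart between the WT libraries, and the median absolute log2 difference was 0.21 against 1.37 for RUNX1. The other 6 heptad genes differed by 0.020 (FLI1) to 0.27 (TAL1) on the same scale. Across the same libraries the summed blood markers were at 51.4 CPM in WT replicate 1 and 87.7 CPM in WT replicate 2, with ITGA2B at 17 and 46 counts and LCP1 at 46 and 99. GFI1 was at 58.5 and 58.3 CPM in them. The part of blood marker content in the RUNX1 values was not tested.

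TAL1 (ENSG00000162367; chromosome 1, 47216290 to 47232220, minus strand) and LYL1 (ENSG00000104903; chromosome 19, 13099033 to 13103161, minus strand) encode the helix-loop-helix members. TAL1 was at 303 and 364 CPM in WT and at 146 and 321 CPM in GFI1-KO. GFI1-KO replicate 2 lay between the WT libraries, and only the shallow GFI1-KO replicate 1, on 22 counts, was low. The log2 fold change was -0.35 (SE 0.27, edgeR adjusted p = 0.81); it was -0.056 without GFI1-KO replicate 1 (adjusted p = 0.992) and -1.19 without GFI1-KO replicate 2, where it passed (adjusted p = 0.0309). TAL1 shares 845 exon bases with the antisense gene AL135960.1, and since the strand setting of the counting is not given, the reads of the pair cannot be told apart there. LYL1 was at 128 and 113 CPM in WT and 66.2 and 87.2 CPM in GFI1-KO, the latter on 10 and 196 counts. Its groups did not overlap, but the log2 fold change of -0.55 (SE 0.25, adjusted p = 0.515) did not pass, and it did not pass under any of the 13 alternatives (-0.85 to -0.47).

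LMO2 (ENSG00000135363; chromosome 11, 33858576 to 33892289, minus strand), the bridging member, had the most even levels of the heptad. It was at 177 and 190.1 CPM in WT and 185 and 193 CPM in GFI1-KO. The groups overlapped, and the log2 fold change was 0.052 (SE 0.22, edgeR adjusted p = 0.983). The pooled ratio of 1.05 had an exact interval of 0.932 to 1.17, which covers counting error only.

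ERG (ENSG00000157554; chromosome 21, 38380027 to 38661780, minus strand) and FLI1 (ENSG00000151702; chromosome 11, 128686535 to 128813267, plus strand) encode the ETS members, which drive endothelial gene expression. ERG was at 225 and 204 CPM in WT and 285 and 317 CPM in GFI1-KO. Both GFI1-KO libraries were above both WT libraries, with a log2 fold change of 0.51 (SE 0.22) that did not pass (edgeR adjusted p = 0.434) and kept its sign over the 13 alternatives (0.42 to 0.59). FLI1 was at 509.5 and 517 CPM in WT and 411 and 591 CPM in GFI1-KO, with the WT values between those of the GFI1-KO libraries. Its log2 fold change was 0.015 (SE 0.22, adjusted p = 0.998), and it changed sign between -0.31 and 0.20 over the alternatives. Exons of FLI1 overlap those of the noncoding genes SENCR and AP001122.1 on the other strand. ERG stood beside an endothelial marker list in which 8 of 10 genes, ERG included, had both GFI1-KO libraries above both WT libraries, against 18.6% of all tested genes. In that list PECAM1 went the other way, at 443 and 388 CPM in WT and 344 and 324 CPM in GFI1-KO, and ESAM overlapped. The part of endothelial cell content in the ERG value was not tested.

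**Figure D2:**
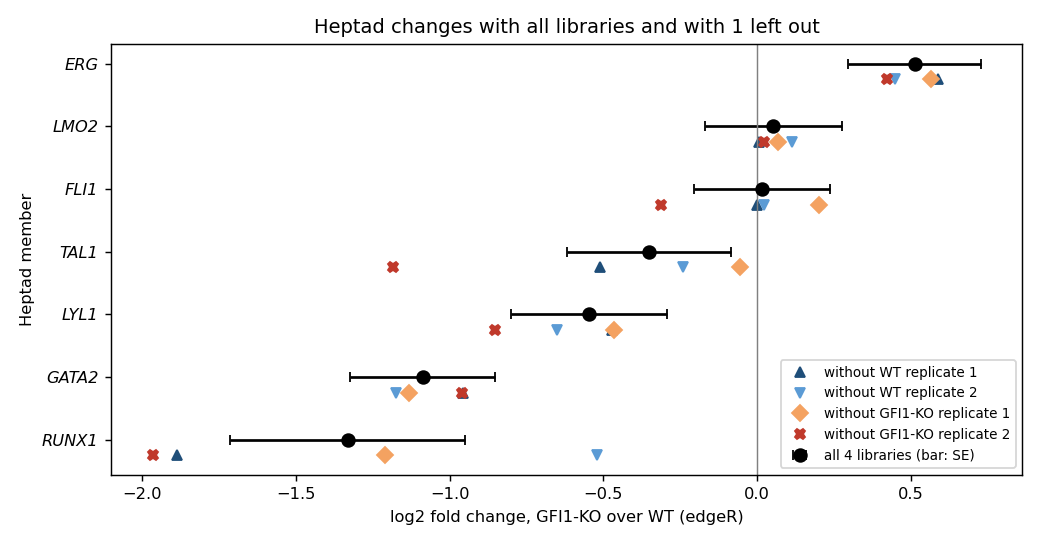
Log2 fold change of GFI1-KO over WT for each heptad gene, from the fit on all 4 libraries (black, bar: SE) and from the fits with 1 library left out (coloured marks). GATA2 stays near -1, ERG stays above 0, RUNX1 runs from -1.97 to -0.52 and TAL1 from -1.19 to -0.056.

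Levels were set against each other per kb of exon (CPM divided by the length of the union of a gene's annotated exons). In WT the order was FLI1 at 62.8 ± 0.61 CPM per kb (SD, n = 2 here and below), GATA2 at 61.1 ± 6.6, LMO2 at 59.1 ± 2.9, TAL1 at 58.5 ± 7.6, LYL1 at 38.6 ± 3.5, ERG at 28.2 ± 2.0 and RUNX1 at 10.03 ± 6.3. The first 4 overlapped with their neighbours in the order, so their order is not resolved, whereas LYL1, ERG and RUNX1 each stood apart from the gene above. In GFI1-KO the order was FLI1 at 61.3 ± 16 CPM per kb, LMO2 at 60.8 ± 1.6, TAL1 at 40.9 ± 22, ERG at 39.7 ± 3.0, GATA2 at 29.5 ± 2.4, LYL1 at 24.6 ± 4.8 and RUNX1 at 3.45 ± 1.3. On this length GATA2 overlapped FLI1, LMO2 and TAL1 in WT, and lay below ERG in GFI1-KO, with ranges that did not overlap. With the longest coding transcript as the length, chosen as an alternative after seeing the data, LYL1 moved to rank 3 in WT and rank 4 in GFI1-KO. GATA2 then took rank 6 in GFI1-KO, while FLI1 stayed at rank 1 and RUNX1 at rank 7 in both genotypes. On that length FLI1 no longer overlapped GATA2 in WT, at 123 and 124 CPM per kb for FLI1 against 87.1 and 74.8 for GATA2.

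As shares of all heptad reads, GATA2 was lower and ERG higher in both GFI1-KO libraries. The 7 genes together had 3858 and 4443 counts in the WT libraries, against 192 and 3820 in the knockout, a summed 1723, 1864, 1272 and 1700.3 CPM. GATA2 gave 17% and 13.5% of heptad reads in WT, against 10.9% (exact binomial interval 6.90% to 16.2%) and 7.30% (6.50% to 8.17%) in GFI1-KO. ERG gave 13% and 10.9% in WT, against 22.4% (16.7% to 29%) and 18.6% (17.4% to 19.9%) in GFI1-KO. For both genes the values of the genotypes did not overlap. The GATA2 interval of GFI1-KO replicate 1 did overlap those of WT replicate 1 (15.9% to 18.3%) and WT replicate 2 (12.5% to 14.5%). RUNX1 gave 5.05% and 12.1% in WT, against 3.12% and 3.98% in GFI1-KO, without overlap of values. FLI1 held the largest share in every library, at 29.6% and 27.7% in WT, against 32.3% and 34.7% in GFI1-KO, without overlap of values. LYL1 gave 7.44% and 6.05% in WT, against 5.21% and 5.13% in GFI1-KO. LMO2 gave 10.3% and 10.2% in WT, against 14.6% and 11.3% in GFI1-KO. The values of both genes did not overlap, but their intervals did, and only for ERG were all intervals of the genotypes apart. No background share over other genes was computed for this measure. TAL1 gave 17.6% and 19.5% in WT, against 11.5% and 18.9% in GFI1-KO, which overlapped. A share rises when another falls, so these values are not independent of each other.

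**Figure D3:**
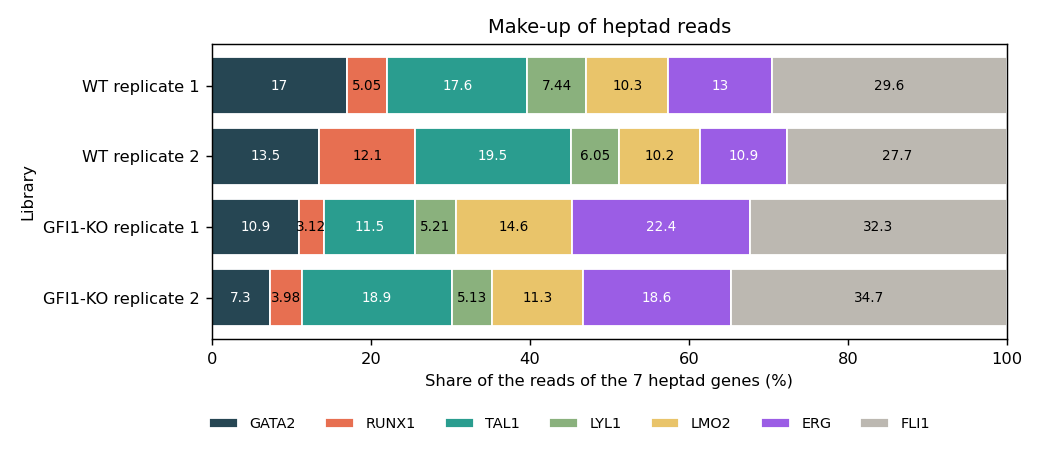
Share of the reads of the 7 heptad genes (%) held by each gene in each library. The GATA2 segment shrinks from 17% and 13.5% in WT to 10.9% and 7.30% in GFI1-KO, and the ERG segment widens from 13% and 10.9% to 22.4% and 18.6%.

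Ratios between members within a library do not depend on its depth or scaling. Of the 21 pairs, 16 had ratios that did not overlap between the genotypes, against 42.8% of all pairs among the 5771 tested genes with at least 6 counts in every library. The 21 ratios come from only 7 genes and are not independent. For 3 pairs, all with ERG, the exact intervals of the WT and GFI1-KO libraries were also apart. The share of all gene pairs with intervals apart was not computed. Read ratios of GATA2 to ERG were 1.31 and 1.24 in WT, against 0.488 and 0.392 in GFI1-KO, 2.91-fold lower by geometric mean. LYL1 to ERG was 0.571 and 0.555 in WT, against 0.233 and 0.275 in GFI1-KO, 2.22-fold lower. TAL1 to ERG was 1.35 and 1.79 in WT, against 0.512 and 1.01 in GFI1-KO, 2.16-fold lower. Both GFI1-KO values were below both WT values in each of these pairs.

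All 6 pairs with ERG had non-overlapping ratios, each lower relative to ERG in GFI1-KO; a ratio to ERG that was lower in this way was seen for 59.6% of the other genes with at least 6 counts in every library. Within the ETS pair, ERG to FLI1 was 0.441 and 0.394 in WT, against 0.694 and 0.537 in GFI1-KO, 1.46-fold higher. Within the helix-loop-helix pair, TAL1 to LYL1 was 2.36 and 3.23 in WT, against 2.2 and 3.68 in GFI1-KO, and the genotypes overlapped. GATA2 to RUNX1 was 3.37 and 1.12 in WT, against 3.50 and 1.84 in GFI1-KO, and the genotypes overlapped. GATA2 to LMO2, a pair of zinc-finger and bridging protein genes, was 1.65 and 1.32 in WT, against 0.750 and 0.644 in GFI1-KO, 2.13-fold lower. With 2 libraries against 2, the exact two-sided permutation test cannot go below p = 0.33, which the 16 pairs reached (0.438 adjusted over the 21 pairs by Benjamini-Hochberg).

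**Figure D4:**
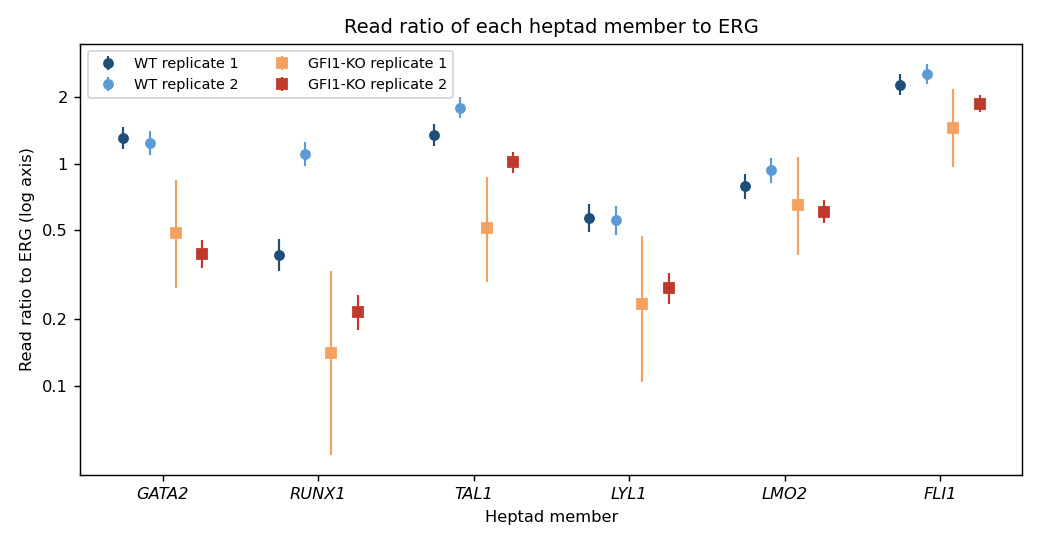
Read ratio of each of 6 heptad genes to ERG (log axis) in the 4 libraries, with exact 95% binomial counting intervals as bars. In each of the 6 genes, both GFI1-KO squares lie below both WT circles, and for GATA2, TAL1 and LYL1 the bars are apart as well.

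Complex partners of the heptad proteins were tested next. Of 15 partner genes, 1 fell and 14 did not pass, against 0.185% of all tested genes called lower and 0.958% in either direction. The median log2 fold change was -0.055. The member that fell was CBFA2T3, the ETO-family corepressor found in TAL1 complexes, at 61.6 and 49.9 CPM in WT and 6.62 and 8.90 CPM in GFI1-KO (log2 fold change -2.67, SE 0.38, edgeR adjusted p = 0.00261). Its value in GFI1-KO replicate 1 is 1 count, below the floor, and the call was lost without GFI1-KO replicate 2 (adjusted p = 0.0549). CBFA2T3 shares exon bases with an antisense gene, AC092384.2. SSBP2, which stabilises the LDB1 bridge, RUNX1T1, another ETO-family gene, and the E-protein gene TCF4 had log2 fold changes of 0.63, 0.65 and 0.47 (adjusted p = 0.434, 0.575 and 0.618). Without GFI1-KO replicate 2 the single call was RUNX1T1, higher, in place of CBFA2T3. LDB1 and TCF3, core parts of the TAL1 complex, had -0.15 and -0.19, and CBFB, the partner of RUNX1, had 0.45; none of these passed.

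Paralogues of the heptad genes held no call in the edgeR fit (0 of 7 tested of 14 in the table), against 0.958% of all tested genes called. At an unadjusted p under 0.05 there were 3 in that fit, against 1064 of 11380 over all tested genes. DESeq2 called 0, with 2 at an unadjusted p under 0.05, against 395 of 11380. GATA6, GATA5 and GATA3 had the smallest p-values of the 7, and GATA4 the largest (log2 fold change 0.041). GATA6 was at 127 and 149.8 CPM in WT and 39.7 and 71.2 CPM in GFI1-KO (log2 fold change -1.09, SE 0.27, edgeR adjusted p = 0.0722). GATA5 had -2.15 (adjusted p = 0.171) and GATA3 0.80 (adjusted p = 0.201), so these GATA genes had values on both sides of 0. GATA6 shares exon bases with the antisense genes GATA6-AS1 and AC091588.3. GATA6 passed with no low-count filter and without either GFI1-KO library, and GATA5 with no low-count filter or when either WT replicate 2 or the shallow GFI1-KO library was dropped. GATA1, the erythroid member, with 10 and 9 counts in the WT libraries against 0 and 1 in the knockout, had too few to be tested.

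Known target genes of heptad factors were divided into a haematopoietic and an endothelial list. The haematopoietic list shares 4 genes with the blood markers. Of 17 haematopoietic targets tested (22 in the table), 1 rose, 1 fell and 15 did not pass, against 0.773% of all tested genes called higher and 0.185% lower. In this list 12 of the 17 log2 fold changes were below 0, beside 5976 of 11380 over all tested genes, and the median was -0.55. GFI1, the disrupted gene, was the one that fell, so no haematopoietic target other than the knocked-out gene was called lower. GFI1 is also among the 12 below 0. MECOM, a stem-cell zinc-finger factor gene, rose (log2 fold change 2.18, SE 0.47, edgeR adjusted p = 0.0371). MECOM stood at 11.6 and 13 CPM in WT, then at 126 (19 counts) and 36.9 CPM (83 counts) in GFI1-KO. Its call was lost with upper-quartile scaling (adjusted p = 0.0673), the newer dispersion (0.0885), library totals alone (0.0622) and a minimum mean of 5 CPM (0.0677), and the log2 fold change was 1.58 without GFI1-KO replicate 1 and 3.35 without GFI1-KO replicate 2. The erythroid factor gene KLF1 and the platelet integrin gene ITGA2B had -2.66 and -2.98 (adjusted p = 0.079 and 0.0893), each with 0 counts in GFI1-KO replicate 1. Without GFI1-KO replicate 1, which leaves 1 GFI1-KO library, the called targets were GFI1, KLF1, ITGA2B and NFE2 (lower) and MECOM and MEIS1 (higher). Calls rose over all genes in that fit, so the shares given above do not apply to it.

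The endothelial target list holds 9 of the 10 endothelial markers, so the lists are not separate evidence. Of its 24 genes, all tested, 4 rose and 20 did not pass; 21 of the 24 log2 fold changes were above 0, beside 5404 of 11380 over all tested genes, and the median was 0.48. The background share of genes called higher was 0.773%. EMCN, an endothelial sialomucin gene, was at 11.6 and 6.71 CPM in WT, and at 72.9 and 41.4 CPM in GFI1-KO, and it passed in each of the 13 alternatives (largest adjusted p = 0.0259). NOTCH4, an endothelial Notch receptor gene, was at 39.7 and 34.0 CPM in WT, and at 152 and 90.8 CPM in GFI1-KO. It shares 98 exon bases with GPSM3. CD34, a progenitor and endothelial surface gene, was at 609 and 658 CPM in WT and 1438 and 1151 CPM in GFI1-KO. DLL4, a Notch ligand gene, was at 97.3 and 124 CPM in WT and 344 and 212 CPM in GFI1-KO. Both GFI1-KO libraries were above both WT libraries for these 4 genes, with log2 fold changes of 2.38, 1.52, 1.02 and 1.22 (edgeR adjusted p = 0.00959, 0.0154, 0.0357 and 0.0372). Leaving out a WT library ended the calls of NOTCH4 (adjusted p = 0.0742 without replicate 2), CD34 (0.54 without replicate 1, 0.247 without replicate 2) and DLL4 (0.272 without replicate 1). CD34 also missed the threshold with the newer dispersion (0.0673), upper-quartile scaling (0.0587) and a minimum mean of 5 CPM (0.0513). DLL4 missed it with DESeq2 (0.0536), the newer dispersion (0.0787), upper-quartile scaling (0.0628), library totals alone (0.0533) and a minimum mean of 5 CPM (0.0697).

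**Figure D5:**
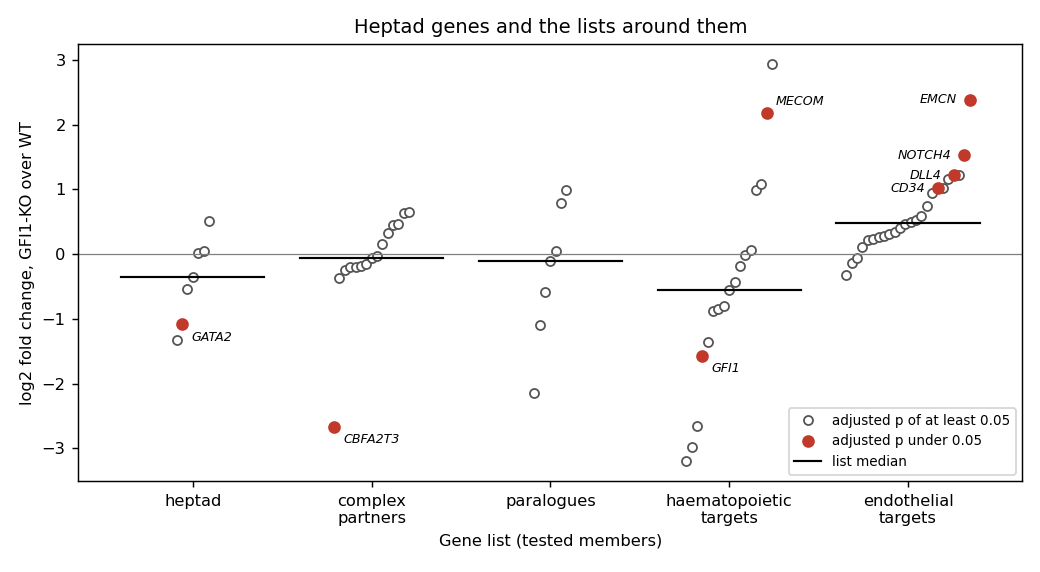
Log2 fold change of GFI1-KO over WT for each tested gene of 5 lists, with filled red points for genes past the test and black lines for list medians. The heptad runs from -1.33 to 0.51, and the endothelial targets lie mostly above 0 with a median of 0.48.

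Genes beside the heptad loci were compared to see whether a member moved with its neighbours. Of 28 neighbouring protein-coding genes, the nearest pair on each side of a member, 17 were tested. In the edgeR fit 0 passed, against 0.958% of all tested genes, so 0 of 17 does not set these genes apart. At an unadjusted p under 0.05 there were 3 in that fit, against 1064 of 11380 over all tested genes. With DESeq2 0 passed and 1 had an unadjusted p under 0.05, against 395 of 11380. Beside GATA2, RPN1, 126785 bases away, averaged 310.3 CPM in WT against 298 CPM in GFI1-KO (log2 fold change 0.012, adjusted p = 0.999). EEFSEC and RAB7A, also near GATA2, had -0.52 and -0.21 (adjusted p = 0.835 and 0.89). Both genes had both GFI1-KO libraries below both WT libraries, as did TRMT1 and NACC1 beside LYL1 and CAPRIN1 and NAT10 beside LMO2. That makes 6 of 17 below, against 22.7% of tested genes, and 1 of 17 above (ETS1, beside FLI1), against 18.6%. NAT10 had the lowest log2 fold change of the 17, -0.71 (edgeR adjusted p = 0.435). Beside RUNX1, SETD4 and CBR1 had -0.17 and 0.68 (adjusted p = 0.974 and 0.801). The ETS-family neighbours ETS2 (beside ERG) and ETS1 (beside FLI1) had 0.61 and 0.59 (adjusted p = 0.501 and 0.346), and ETS1 passed without GFI1-KO replicate 1.

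The genes whose pattern over the 4 libraries was nearest to that of GATA2 were CHCHD10, BMPER and BEX1, by the Euclidean distance of centred log2(CPM + 1) values among 7452 genes. Their distances were 0.12, 0.13 and 0.19. CHCHD10, a mitochondrial protein gene, was at 77.7 and 65.5 CPM in WT and 33.1 and 32.9 CPM in GFI1-KO, and BMPER, a secreted BMP modulator gene, was at 188 and 143 CPM in WT and 86.1 and 77.0 CPM in GFI1-KO. None of the 3 passed the test (edgeR adjusted p = 0.0757, 0.068 and 0.0852). Those nearest to RUNX1 were MICAL2, SLC2A1 and CKB, at larger distances of 0.55, 0.56 and 0.58. MICAL2, an actin-oxidising enzyme gene, was at 134 and 220.3 CPM in WT and 39.7 and 65.4 CPM in GFI1-KO, and it fell (log2 fold change -1.55, adjusted p = 0.0207), a call lost without WT replicate 2 (adjusted p = 0.213), with the newer dispersion (0.0622) and with a minimum mean of 5 CPM (0.0513). SLC2A1, a glucose transporter gene, was at 81.7 and 125 CPM in WT and 33.1 and 50.3 CPM in GFI1-KO. With 4 libraries these likenesses are descriptions only. The genes were picked for values like those of GATA2 or RUNX1, both lower in the GFI1-KO libraries. Their direction follows from that choice, so the MICAL2 call is not separate evidence.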

How the data were processed

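The authors deposited unnormalized gene counts (whole numbers) for 2 WT and 2 GFI1-KO libraries. The tools listed, without role or order, in the submitters' processing notes are HTSeq 0.6.0, HISAT2 2.0.4, DESeq 1.18.1 and SAMtools 1.3.1, and the builds are hg38 and GRCh38. Strand setting, annotation and filters: not given in the sources used here. Of 19912 gene identifiers, 19902 matched GENCODE 29 (GRCh38), used for symbols, coordinates and lengths.

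Counts were tested with edgeR 4.0.16 (R 4.3.3): filterByExpr (minimum count 10, minimum total 15), TMM, and glmQLFit with the earlier dispersion form. A gene was called where p, adjusted by Benjamini-Hochberg over 11380 tested genes, was under 0.05. Log2 fold changes set GFI1-KO over WT (prior count 0.125). Alternatives used limma 3.58.1, DESeq2 1.42.0, other scalings and filters, a replicate block and each library left out. The procedure was tested on simulated data.

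The members and lists were chosen with earlier results of these data known. Named genes are the members, GFI1, up to 4 per list by smallest adjusted p (all called ones included), called neighbours, and the 3 genes most like GATA2 and RUNX1 among those averaging 20 CPM or more, with at least 3 counts in every library. Others were named after their values were seen.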

Additional observations from a re-analysis of the deposited data

How the results depend on the processing

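Depth limits GFI1-KO replicate 1 most, where the 7 heptad genes had 6 to 62 counts. The count of heptad genes past the test was 1 with all libraries (GATA2). It was 0 with DESeq2 (1 at an unadjusted p under 0.05), the newer dispersion, upper-quartile scaling and a minimum mean of 5 CPM, and 2 (GATA2 and RUNX1) with no low-count filter; leaving out a library gave 0 to 2. The cause of these moves was not tested.

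FLI1 changed sign around 0: -0.0074 with upper-quartile scaling, -0.0094 with no low-count filter, -0.018 with the replicate block, and -0.31 to 0.20 with a library left out. LYL1, LMO2 and ERG kept their sign and stayed short of the test in all 13 alternatives.

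Over all genes the 109 calls (88 higher, 21 lower) became 33 with DESeq2, 58 with the newer dispersion, 58 with upper-quartile scaling, 72 with library totals alone, 305 with no low-count filter and 50 with a minimum mean of 5 CPM. They ran from 62 (without WT replicate 1) to 373 (without GFI1-KO replicate 1) with a library left out. The paralogue count of 0 became 2 with no low-count filter and 0 to 2 with a library left out. The haematopoietic target count of 2 became 1 with DESeq2, the newer dispersion, upper-quartile scaling, library totals alone and a minimum mean of 5 CPM, 5 with no low-count filter, and 1 to 6 with a library left out. The endothelial target count of 4 became 2 with the newer dispersion, upper-quartile scaling and a minimum mean of 5 CPM, and 2 to 7 with a library left out. The neighbour count of 0 became 0 to 1 with a library left out.

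Replicate numbers are shared by the genotypes, but no label ties them to a common culture, so they were not used as pairs. Deviations of same-numbered libraries correlated at 0.19 over 7995 genes. With the replicate block the calls numbered 327 over all genes, 2 in the heptad (GATA2 and RUNX1, adjusted p = 0.00108 and 4.05e-06), 1 among paralogues (GATA6), 5 among haematopoietic and 7 among endothelial targets.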
